A study of Caenorhabditis elegans with 6 samples.

Results

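The 10 genes followed here belong to the small heat shock protein family of Caenorhabditis elegans: sip-1 (F43D9.4), hsp-17 (F52E1.7), hsp-16.1 (T27E4.8), hsp-16.11 (T27E4.2), hsp-16.48 (T27E4.3), hsp-16.49 (T27E4.9), hsp-16.2 (Y46H3A.3), hsp-16.41 (Y46H3A.2), hsp-12.3 (F38E11.1) and hsp-12.6 (F38E11.2). Every probe set that the platform annotation assigns to at least 1 of these symbols was taken, which gave 9 of the 22548 probe sets that are no control. All 10 genes, of 18217 gene symbols on the array, had a probe set, but not each its own: hsp-16.1 and hsp-16.11 share 1 probe set, hsp-16.48 and hsp-16.49 share another, and neither gene of a pair can be told from its partner here. The gene sip-1 has 2 probe sets, of which one is marked by the manufacturer's suffix s as able to bind further transcripts. The arrays came from whole worms at the fourth larval stage (L4), fed E. coli OP50 on solid medium after synchronisation by bleaching, in 2 genotypes with 3 biological replicates each. One genotype was atfs-1(et18), a gain-of-function point-mutation allele of the transcription factor gene of the mitochondrial unfolded protein response, and the other was the wild-type strain N2. Neither genotype received a heat shock or another treatment according to the labels, and the number of worms per sample is not given there.

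Small heat shock proteins are chaperones without ATPase activity that carry an alpha-crystallin domain and hold unfolding proteins in a state from which other chaperones can refold them. In C. elegans the hsp-16 genes are the classical heat-inducible members, driven by the heat shock factor HSF-1 and organised in divergently transcribed pairs, whereas SIP-1 is best known as a chaperone of eggs and embryos and the short Hsp12 proteins lack chaperone activity in vitro. Several of these genes, among them sip-1, hsp-16.1, hsp-16.49 and hsp-12.6, are also known targets of the FOXO factor DAF-16.

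In atfs-1(et18) worms sip-1 and hsp-17 rose, sip-1 by more than 3-fold on both of its probe sets and hsp-17 by 1.94-fold. No hsp-16 probe set was called: those of both near-identical pairs had log2 changes of -0.12 and -0.08, and hsp-16.2 was at 1.39-fold lower signal in the mutant. For hsp-12.3 the signal was 3.26-fold lower in the mutant with 1 wild-type array among the mutant arrays, and this difference missed the threshold too (adjusted p = 0.151). Of the 9 probe sets, 7 were bright enough to be tested, and 3 of these were called higher and 0 lower (limma, Benjamini-Hochberg adjusted p under 0.05), with 4 at an unadjusted p under 0.05. The called sets were both of sip-1 and that of hsp-17. The gene sip-1 thus enters the member counts of this paragraph with both of its probe sets. Among all 13792 probe sets tested, 3.93% were called, 2.63% higher and 1.30% lower. The share of all probe sets at an unadjusted p under 0.05 was not counted. Counts at that level, here and below, thus have no background beside them and are not read as an excess. The 3 arrays of one genotype did not overlap with those of the other in 4 of the 7, 3 higher and 1 lower in the mutant, beside 23.3% of all probe sets tested (12.5% higher, 10.8% lower). With both dim members it was 5 of 9, beside 18.7% of all probe sets that are no control. The median log2 change of the 7 was -0.08, and that of all probe sets tested was -0.01.

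**Figure D1:**
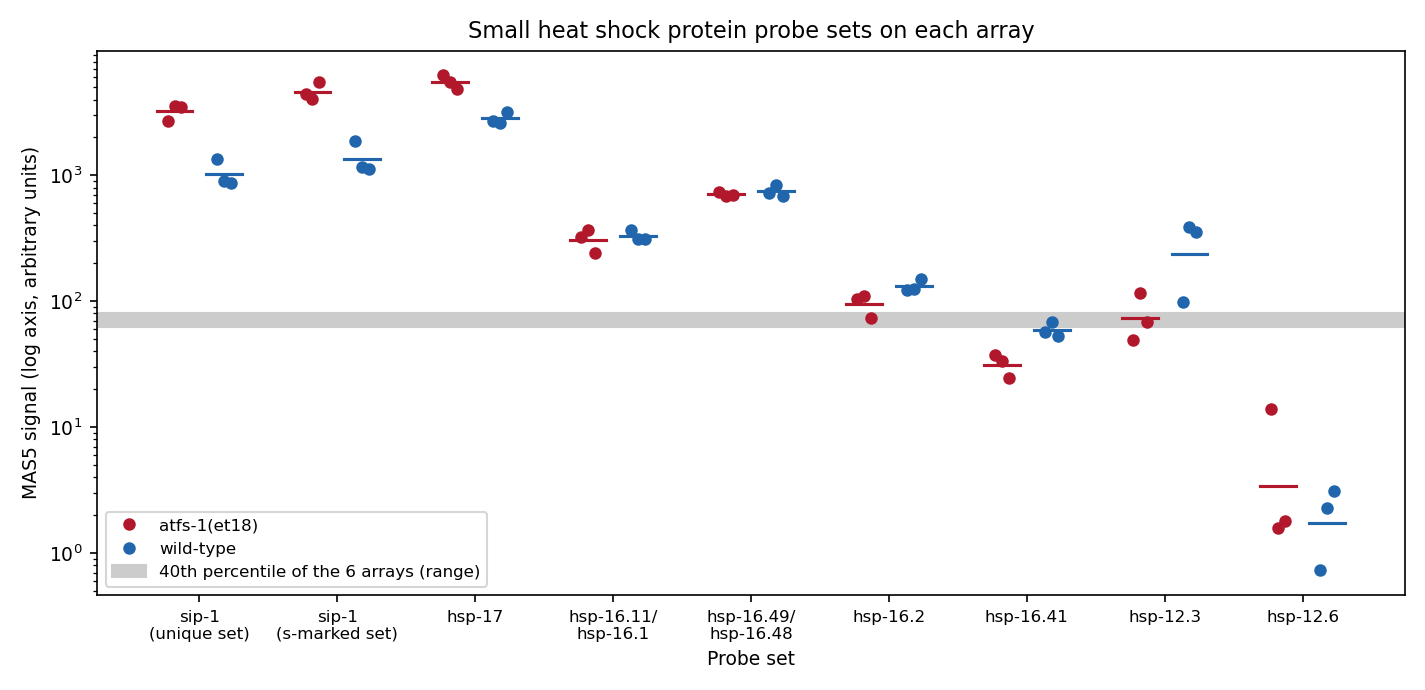
Signals of the 9 small heat shock protein probe sets on each of the 6 arrays (log axis, arbitrary units; red, atfs-1(et18); blue, wild-type; bars, mean of the log2 values; grey band, range of the 40th percentile of the arrays, below which a probe set counts as dim). The red points lie above the blue ones for sip-1 and hsp-17 and below them for hsp-16.2 and hsp-16.41, and heights can be compared only within a probe set.

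The signals of the 6 arrays had the same trimmed mean of 500.2 on each array, and array medians of 111 to 138. Correlations of log2 signals across probe sets were between 0.944 and 0.973 within atfs-1(et18), between 0.937 and 0.969 within wild-type and between 0.895 and 0.941 across genotypes. Of 64 marker genes for germline, oocyte and early embryo, sperm, intestine, body wall muscle and yolk, 62 were on the array under a symbol of their own. All 62 were bright enough to be tested. Since 13792 of the 22548 probe sets passed the same filter, this is no check of the labelled whole-worm source. The transcript of atfs-1 itself had signals of 346, 355 and 289 in the mutant, against 207, 284 and 277 in wild-type worms (log2 change 0.38 ± 0.20 SE, limma adjusted p = 0.3997). Because et18 is a point mutation, that level does not check the labels.

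The probe set of sip-1 without a mark had signals of 2723, 3536 and 3488 in atfs-1(et18) worms, against 1350, 909 and 875 in wild-type worms. The lowest mutant signal was thus above the highest wild-type signal, which came from wild-type replicate 1. The means were 3249 ± 456 in the mutant and 1045 ± 265 in wild-type worms (SD, n = 3 each). The rise was 3.15-fold, with a 95% interval of 2.28 to 4.34 (log2 change 1.66 ± 0.20 SE, limma adjusted p = 0.00322). On the marked probe set the signals were 4398, 4073 and 5492 in the mutant, against 1869, 1155 and 1118 in wild-type worms. Again wild-type replicate 1 was the highest of its genotype and the genotypes did not overlap. The change was 3.44-fold with an interval of 2.42 to 4.89 (1.78 ± 0.22, limma adjusted p = 0.00343). The lowest mutant array differed between the probe sets, replicate 1 on the first and replicate 2 on the second. Both calls held under all alternatives tried, with log2 changes from 1.42 to 1.85 on the unmarked and from 1.47 to 2.02 on the marked probe set. Since both probe sets read the same gene, they are no independent evidence of each other.

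For hsp-17, a small heat shock protein gene outside the hsp-16 clusters, the signals were 6208, 5474 and 4832 in atfs-1(et18) worms, against 2718, 2626 and 3171 in wild-type worms. All mutant arrays were above all wild-type arrays, and the highest replicate was 1.28-fold above the lowest in the mutant and 1.21-fold in wild-type worms. The rise of 1.94-fold had a 95% interval of 1.53 to 2.45 (log2 change 0.95 ± 0.15 SE, limma adjusted p = 0.0101). This call was lost without atfs-1(et18) replicate 1 (0.86, limma adjusted p = 0.0744) and without wild-type replicate 2 (0.90, adjusted p = 0.0634), while the direction stayed the same under every alternative.

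The hsp-16 genes followed here lie in 2 clusters. In the gene table of assembly WBcel235, hsp-16.1, hsp-16.48, hsp-16.49 and hsp-16.11 follow each other with no other protein-coding gene between them, and hsp-16.2 stands next to hsp-16.41. The shared probe set of hsp-16.1 and hsp-16.11 had signals of 321, 366 and 243 in atfs-1(et18) worms, against 370, 314 and 312 in wild-type worms. These ranges overlap, and the lowest signal was that of atfs-1(et18) replicate 3. The log2 change was -0.12 ± 0.21 (SE, 95% interval -0.59 to 0.36, limma adjusted p = 0.838), and it was 0.051 without that array.

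The shared probe set of hsp-16.48 and hsp-16.49, marked x as prone to cross-hybridisation, read 742, 683 and 697 in the mutant, against 725, 841 and 691 in wild-type worms. It was the steadiest of the tested members, with a residual SD of 0.11 on the log2 scale, below the lower quartile of all probe sets tested (0.19, median 0.28). Its change was -0.08 ± 0.15 (SE, limma adjusted p = 0.842), and the 95% interval of the ratio of atfs-1(et18) to wild-type ran from 0.741 to 1.20. A rise of the size measured for sip-1 or hsp-17 lay outside the intervals of both shared probe sets, although a probe set read by 2 genes gives only their sum.

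The signals of hsp-16.2, the gene used most as a heat stress reporter in this worm, were 105, 110 and 74.2 in atfs-1(et18) worms, against 124, 125 and 149 in wild-type worms. Each mutant array lay below each wild-type array, and the change of -0.48 ± 0.28 (SE, 95% interval -1.11 to 0.16) did not pass the test (limma adjusted p = 0.435). Its partner hsp-16.41 read 37.3, 33.8 and 24.6 in the mutant, against 57.2, 68.4 and 52.6 in wild-type worms. These ranges did not overlap either, but every signal was under the 40th percentile of its own array, the nearest being wild-type replicate 2 with its percentile at 68.5, so hsp-16.41 was not tested and has no fold here. Fitted with no filter on dim probe sets, its log2 change was -0.91 ± 0.47 (SE, limma adjusted p = 0.488, where 2.16% of all probe sets were called).

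The short family members hsp-12.3 and hsp-12.6 are neighbours too. For hsp-12.3 the signals were 48.98, 117 and 68.8 in atfs-1(et18) worms, against 99.1, 390 and 353 in wild-type worms. Wild-type replicate 1 lay below atfs-1(et18) replicate 2, so the genotypes overlapped. The log2 change was -1.70 ± 0.55 (SE, 95% interval -2.95 to -0.46, unadjusted p = 0.0130, limma adjusted p = 0.151), and the residual SD of 0.90 was above the upper quartile of all probe sets tested (0.42). Without wild-type replicate 1 it was -2.34 and passed the threshold (adjusted p = 0.00942), as it did with array weights (-2.40, adjusted p = 0.00595). One mutant signal was below the 40th percentile of its array. The probe set of hsp-12.6 gave signals of 13.8, 1.58 and 1.79 in the mutant, against 0.733, 2.27 and 3.13 in wild-type worms, all far below that percentile, and hsp-12.6 was not measurable on these arrays.

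**Figure D2:**
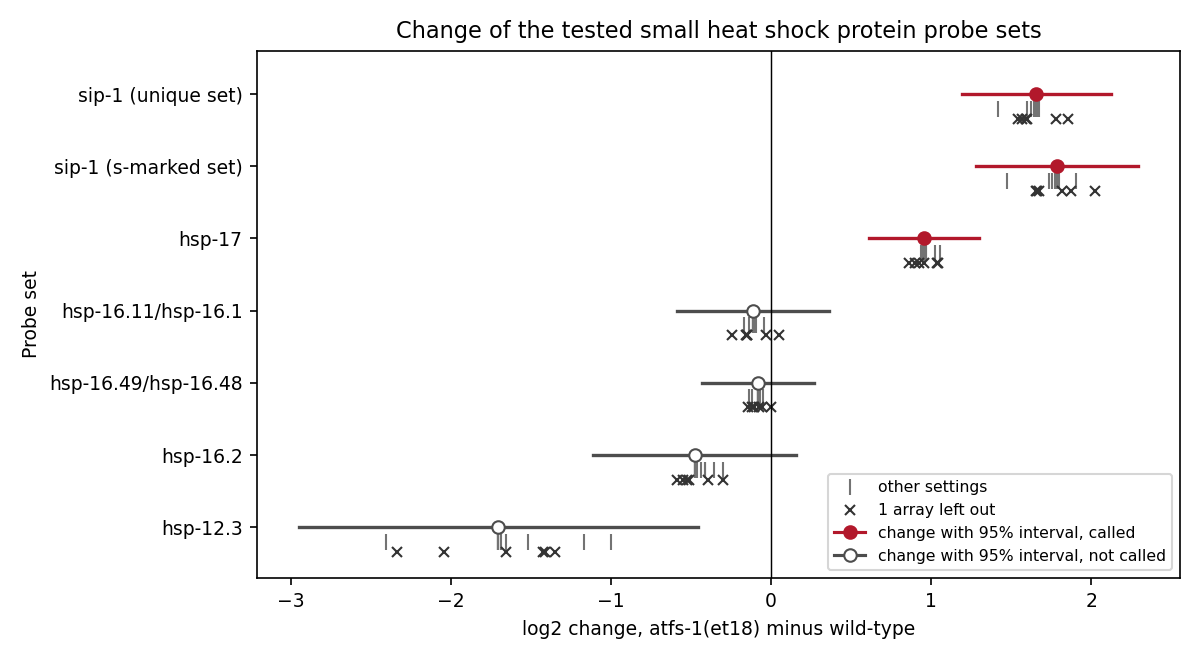
Log2 change (atfs-1(et18) minus wild-type) of the 7 tested probe sets, with 95% intervals from limma (red filled, adjusted p under 0.05; open, not called), and below each the values under the other settings (ticks) and with 1 array left out (crosses). The intervals of sip-1 and hsp-17 lie above 0 in full, those of the hsp-16 probe sets span 0, and the values of hsp-12.3 spread from -2.40 to -1.003.

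The remaining small heat shock protein genes were read from a list of other family members. Of 8 on the array, 6 were tested and 0 were called (limma, 1 at an unadjusted p under 0.05, beside 4.06% of 10633 genes called), and all 6 changes were negative with a median of -0.24, against 0.004 for all genes tested. The smallest p belonged to Y55F3BR.6, with signals of 482, 468 and 521 in the mutant, against 699, 604 and 590 in wild-type worms (log2 change -0.36 ± 0.16 SE, limma adjusted p = 0.289). The gene hsp-12.1 had a change of -0.27 ± 0.20 (adjusted p = 0.565). The genes hsp-16.20 and hsp-16.21 were below the 40th percentile on every array and were not tested.

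Regulators of the family were next. The list of the heat shock factor and its regulators had 0 of 6 tested genes called (limma, 0 at an unadjusted p under 0.05, median 0.10). For hsf-1, the factor that drives hsp-16 transcription, the signals were 194, 132 and 125 in atfs-1(et18) worms, against 150, 90.4 and 113 in wild-type worms, which overlap (0.36 ± 0.30, adjusted p = 0.617). This probe set is marked x, as prone to cross-hybridisation. On the s-marked probe set of hsf-1 the genotypes overlapped too (0.43 ± 0.41, adjusted p = 0.665). The genes of the negative regulators of HSF-1, HSB-1 and DDL-1, had log2 changes of 0.11 ± 0.18 and -0.28 ± 0.19 (limma adjusted p = 0.810 and 0.495). Transcript levels of these regulators do not measure HSF-1 activity.

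In the list of cytosolic Hsp70, Hsp90, Hsp110 and co-chaperones, which work with small heat shock proteins on refolding, 0 of 17 tested genes were called (limma, 3 at an unadjusted p under 0.05), 13 changes were negative and the median was -0.20. The constitutive Hsp70 gene hsp-1 had signals of 9279, 9967 and 7127 in the mutant, against 12237, 11678 and 11942 in wild-type worms (-0.46 ± 0.15, adjusted p = 0.167). The Hsp90 gene hsp-90, formerly daf-21, had a change of -0.32 ± 0.14 (adjusted p = 0.280) and the heat-inducible Hsp70 gene hsp-70 one of 0.001 ± 0.33 (adjusted p = 1.00). The co-chaperone and ubiquitin ligase gene chn-1 had the smallest p of the list, with a change of 0.76 ± 0.18 (adjusted p = 0.0519), with signals of 534, 588 and 552 in the mutant, against 325, 283 and 383 in wild-type worms.

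The inducible Hsp70 genes F44E5.4 and F44E5.5 share both of their probe sets, and so were not counted among the tested genes of that list. They are named here after their values were seen. On the first probe set the signals were 370, 261 and 235 in atfs-1(et18) worms, against 986, 1035 and 890 in wild-type worms. On the second they were 479, 530 and 297 in the mutant, against 1604, 1266 and 1308 in wild-type worms. The genotypes were well apart on both, and the falls were 3.42-fold and 3.28-fold (log2 change -1.77 ± 0.20 and -1.71 ± 0.24 SE, limma adjusted p = 0.00230 and 0.00548). Both calls held under all 17 alternatives. In the same mutant arrays, sip-1 and hsp-17 were thus higher while this heat-inducible Hsp70 pair was lower.

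DAF-16, the FOXO factor of insulin signalling, and factors related to it had 0 of 12 genes called (limma, 4 at an unadjusted p under 0.05, median -0.06). On its brightest probe set daf-16 had a change of -0.08 ± 0.14 (adjusted p = 0.847). The zinc finger factor gene pqm-1, whose product acts in partial opposition to DAF-16, read 1575, 1988 and 1237 in the mutant, against 470, 847 and 1055 in wild-type worms, with no overlap (1.07 ± 0.30, adjusted p = 0.107). The kinase gene pdk-1 had a change of -0.58 ± 0.22 (adjusted p = 0.221).

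Among DAF-16 targets that are no small heat shock proteins, 2 of 16 were called higher and 0 lower (limma, 6 at an unadjusted p under 0.05). Of all genes, 2.69% were called higher and 1.37% lower. The 16 changes were positive for 11 genes and negative for 5, with a median of 0.29. The gene dod-3 read 608, 415 and 636 in atfs-1(et18) worms, against 111, 110 and 104 in wild-type worms (2.33 ± 0.22, adjusted p = 0.000844). The ferritin gene ftn-1 rose by 1.19 ± 0.18 on the log2 scale (adjusted p = 0.00751), a call lost in 1 of 17 alternatives. The most negative change was that of lys-7, which is named here after its values were seen. It read 439, 127 and 448 in the mutant, against 2014, 802 and 576 in wild-type worms, with no overlap. Its change of -1.74 ± 0.57 was not called (limma unadjusted p = 0.0143, adjusted p = 0.159). The genes sod-3 and mtl-1, also named after their values were seen, were higher in the mutant with no overlap. Their changes of 1.08 ± 0.34 and 0.95 ± 0.30 were not called either (limma unadjusted p = 0.0115 and 0.0110, adjusted p = 0.143 and 0.140). The listed catalase gene ctl-1 was not among the 16 because it shares its probe set with ctl-3, another catalase gene, and is named here after its values were seen. That probe set read 2353, 2466 and 2257 in atfs-1(et18) worms, against 1014, 1402 and 1549 in wild-type worms, with no overlap. It was called higher (0.86 ± 0.18, limma adjusted p = 0.0350), a call lost in 7 of 17 alternatives, with adjusted p up to 0.159 (without atfs-1(et18) replicate 1). The list of mitochondrial chaperones had 5 tested genes and also held atfs-1, a transcription factor gene and no chaperone. All 5 changes were positive, with a median of 0.38, against 0.004 for all genes tested. That median was the change of atfs-1 itself and not of a chaperone. Of the 5, 1 was called higher and 0 lower (limma, 2 at an unadjusted p under 0.05). This was the DnaJ gene dnj-10 (1.10 ± 0.17, adjusted p = 0.00938), while hsp-6, the mitochondrial Hsp70 gene, had a change of 0.61 ± 0.16 (adjusted p = 0.0773).

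**Figure D3:**
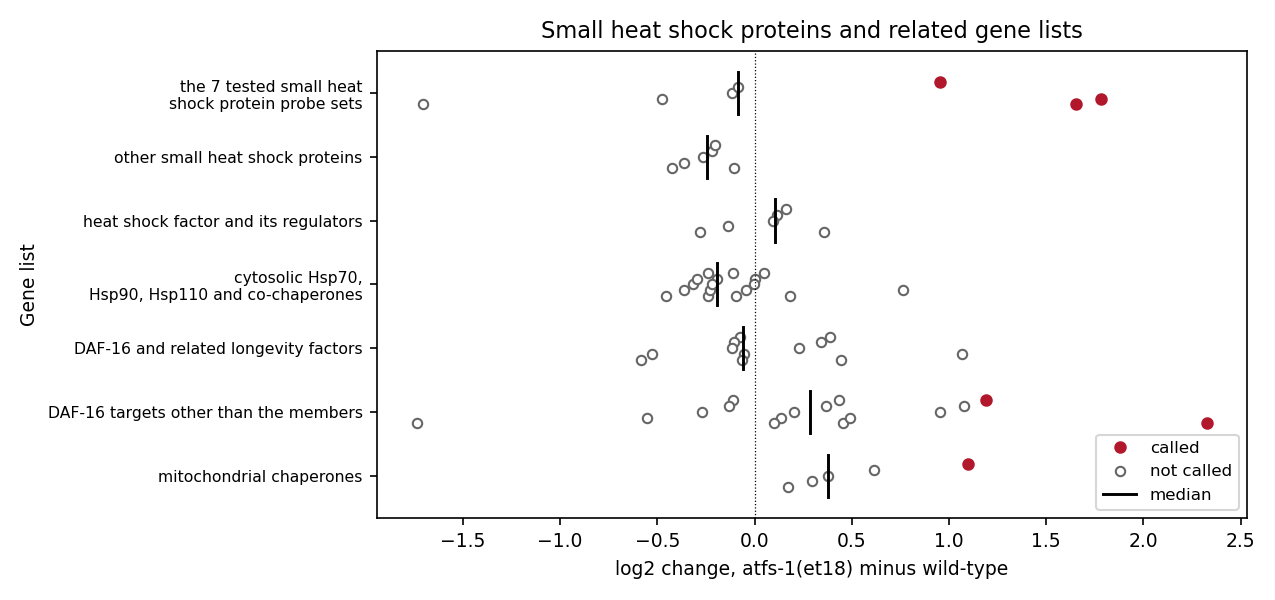
Log2 change (atfs-1(et18) minus wild-type) of the 7 tested small heat shock protein probe sets and of the tested genes of 6 related lists (1 point each; red filled, limma adjusted p under 0.05; bar, median; vertical position within a row has no meaning). The small heat shock protein row spreads from -1.70 to 1.78, and the heat shock factor list has no called gene.

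RNA was taken from whole worms, so fewer cells of a type and less RNA per cell cannot be told apart. Germline and oocyte markers were read beside sip-1 because its product is an embryonic chaperone. All 12 germline markers and all 13 oocyte and early embryo markers were tested, none was at 0, and 0 of either list were called (limma, 2 and 4 at an unadjusted p under 0.05, median changes 0.18 and 0.54). The summed signal of the germline markers ran from 12157 to 14780 in atfs-1(et18) and from 8376 to 17694 in wild-type arrays. That of the oocyte and early embryo markers ran from 7254 to 9477 in atfs-1(et18) and from 4567 to 9024 in wild-type arrays. The genotypes thus overlapped for both lists, through wild-type replicate 1 alone. Wild-type replicates 2 and 3 lay below every mutant array on both sums. Changes were positive for 10 of 12 germline markers and for 10 of 13 oocyte and early embryo markers. Within wild-type, replicate 1 had the highest value of both marker lists and of sip-1, and the lowest of hsp-12.3. With the mean of both marker lists as a covariate, a fit chosen after seeing the data, the log2 changes of sip-1 were 1.42 and 1.47 (limma adjusted p = 0.00176 and 0.000613), that of hsp-17 was 1.02 (adjusted p = 0.00761) and that of hsp-12.3 was -1.003 (adjusted p = 0.216).

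The yolk protein genes, which mark the onset of the adult programme in the intestine, had summed signals from 1091 to 1686 in atfs-1(et18) and from 6925 to 11409 in wild-type arrays. All 5 tested were called lower (limma), beside 1.37% of all genes tested. The summed sperm, intestine and body wall muscle markers ran from 113976 to 136249, from 82833 to 117062 and from 86861 to 103322 in atfs-1(et18) arrays, against 142445 to 190910, 113609 to 143255 and 105380 to 116280 in wild-type arrays. Of these 3 lists only the intestine list had a called member, 1 of 10, which was lower. This was cpr-1, named here after its values were seen, with means of 2309 in the mutant and 15466 in wild-type worms. Its fall is part of that of the summed intestine signal. All 12 sperm, all 10 body wall muscle and 8 of 10 intestine changes were negative. The sums overlapped between genotypes for intestine and not for sperm or body wall muscle. The part of these differences in the changes of the small heat shock protein genes was not tested.

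**Figure D4:**
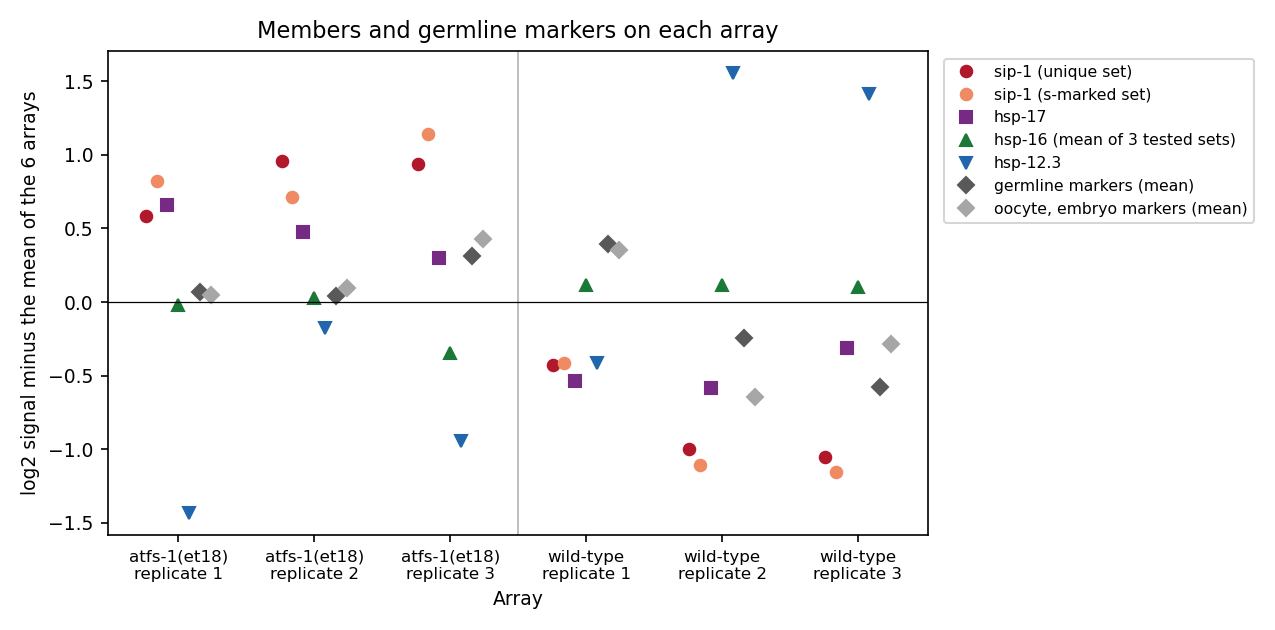
Log2 signal on each array minus the mean of the 6 arrays, for sip-1 (both probe sets), hsp-17, the mean of the 3 tested hsp-16 probe sets, hsp-12.3 and the mean of the germline and of the oocyte and early embryo markers. Wild-type replicate 1 stands above the other wild-type arrays for sip-1 and both marker lists and below them for hsp-12.3, and sip-1 is above 0 on all atfs-1(et18) arrays and below 0 on all wild-type arrays.

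Beyond the clusters themselves, 10 places next to a member are held by other protein-coding genes, of which 4 had a tested probe set of their own. Of these, T27E4.7, next to hsp-16.1, was the single one called and is named after its values were seen. It read 1506, 1785 and 1183 in atfs-1(et18) worms, against 786, 676 and 748 in wild-type worms. Its log2 change was 1.00 ± 0.18 (SE, limma adjusted p = 0.0199), a call lost in 6 of 18 alternatives, while the adjoining probe set of hsp-16.1 and hsp-16.11 was not called.

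As a description, the tested probe sets most like each pattern over the 6 arrays were taken by Pearson correlation of the log2 values. The genotype difference is part of each correlation, and each gene was chosen as one of the 3 highest among 13102 probe sets, so the values are high by choice. For sip-1 on the unmarked probe set these were sars-2, a mitochondrial seryl-tRNA synthetase gene (r = 0.999), F41G4.7 (0.995) and the autophagy gene atg-13 (0.994). On the marked probe set they were the innexin gene inx-9 (0.999), the meiotic gene him-17 (0.996) and C28A5.1 (0.995), so that the probe sets of sip-1 had no gene in common among their nearest 3. For hsp-17 they were timm-23, of the mitochondrial import channel (0.999), C56A3.4 (0.995) and the kinase gene prk-1 (0.995). The mean of the tested hsp-16 probe sets was nearest to the ribosomal protein gene rps-10 (0.997), to pigl-1 (0.996) and to the ribosomal protein gene rps-3 (0.993), of which none was called. Of the genes nearest to sip-1 or hsp-17, atg-13, him-17 and prk-1 were not called either (limma adjusted p = 0.231, 0.157 and 0.0530). F41G4.7 read 14.0, 8.23 and 5.44 in wild-type worms, below the 40th percentile of each of those arrays, so it was tested only through the mutant arrays.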

How the data were processed

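Each of the 6 Affymetrix C. elegans arrays has 1 deposited intensity per probe set, on a linear scale. The submitters' processing notes name MAS5. Its version, its scaling target and any detection calls were not used here. No intensity is at or below 0. An array has no read depth, so precision is limited by their number, 3 per genotype. The members and the gene lists were chosen with earlier results of these data known.

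Log2 values were taken with no offset. The 77 controls were left out, and a probe set was tested if it exceeded the 40th percentile of its array on at least 3 of 6 arrays. Probe sets were named from the platform annotation, with symbols brought up to date by gene identifier in the WBcel235 gene table (20701 of 20810 probe sets with 1 symbol matched; 843 had several and 895 none); no coordinates are given. The contrast atfs-1(et18) minus wild-type was fitted in limma 3.58.1 (R 4.3.3) (intensity trend, two-sided, Benjamini-Hochberg over all probe sets tested). A list gene was read from its brightest probe set with 1 symbol. Named were all members, up to 4 called genes per list (otherwise the 2 of smallest p), fixed regulators and chaperones, and the 3 nearest patterns of sip-1, hsp-17 and the hsp-16 mean; exceptions are stated in the text. Promoter and protein sequences were not analysed here. An exact test of 3 against 3 arrays cannot go below p = 0.1. Between same-numbered replicates, deviations from the genotype means correlated at 0.17, 0.18 and -0.40. Differently numbered replicates were not compared, so these values cannot decide whether the numbers pair the arrays. Simulated arrays had the spreads of these 13792 probe sets and 100 planted changes of each size. There limma recovered 37% of 2-fold and 73% of 4-fold changes, while 2.65% of the calls fell on probe sets simulated without a change. Recovery depends on how many probe sets change, and that number is not known for the real arrays. The noise was normal and independent, with each estimated residual SD taken as the true one, so shifts shared across an array were absent. These rates thus describe the simulated arrays only. Alternatives covered scaling, offset, filter, variance prior, array weights, replicate block, shared probe sets and each array left out; a marker covariate was added after seeing the data. Figures were drawn with matplotlib 3.10.9.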

Additional observations from a re-analysis of the deposited data

How the results depend on the processing

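The count of small heat shock protein probe sets called was 3, and it stayed between 2 and 4 under all 18 alternatives, 6 of which left out 1 array each. The 4 included hsp-12.3 (array weights, and without wild-type replicate 1), and the 2 lacked hsp-17 (without atfs-1(et18) replicate 1 or wild-type replicate 2) or the marked probe set of sip-1, which is left out by construction with the shared probe sets. Under the stricter filter hsp-16.2 and hsp-12.3 were not tested. Over all 13792 probe sets, 542 were called, against 1637 with array weights, 827 with the marker covariate, 336 with the replicate block, 304 without shared probe sets and 176 to 867 with 1 array left out (176 without atfs-1(et18) replicate 1, 867 without wild-type replicate 1). The replicate block changed no call of a member, and whether the replicate numbers pair the arrays was not decided. Of the list genes, 3 were called, against 8 with array weights, 6 with the covariate, 1 without shared probe sets and 2 to 4 with 1 array left out. Directions that turned were all of changes that were not called: hsp-16.1 and hsp-16.11 at 0.051 without atfs-1(et18) replicate 3 (-0.25 to 0.051 with 1 array left out), daf-16 at 0.0063 with the covariate, hsb-1 at -0.048 without wild-type replicate 3 (-0.048 to 0.27), rps-10 at 0.015 with quantile normalization, and hsp-70 at -0.0025 and -0.0067 with offsets of 16 and 64, -0.16 with array weights, -0.11 and -0.073 without atfs-1(et18) replicate 1 or 2, and -0.23 and -0.044 without wild-type replicate 1 or 3 (-0.23 to 0.27). Apart from the exclusions by construction, the cause of these shifts was not tested. Signals under the 40th percentile, as for hsp-16.41 and hsp-12.6, set the limit of what could be compared.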
